A study of Homo sapiens with 4 samples.

Results

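The Sprouty genes SPRY1, SPRY2 and SPRY4 and the SPRED genes SPRED1, SPRED2 and SPRED3 were followed across 4 conditions of pancreatic ductal adenocarcinoma (PDAC) cells. These 6 genes were taken by gene symbol from the 16834 genes of the series, and their 23 transcripts were taken by NCBI Gene number from 70268 RefSeq transcripts. The samples carry MIA PaCa-2, an established human PDAC line, in their titles and the genotype WT in their labels. The cells were a control, cells given 1 µM NBT (neobractatin, a natural compound), cells given 5 µM trametinib, which blocks the kinase MEK, and cells given both drugs at these concentrations, each for 12 h. Each condition was sequenced as 1 library, so no difference below has a replicate check, and the variation between cultures was not measured.

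Sprouty and SPRED proteins are feedback inhibitors of receptor tyrosine kinase signaling. Growth factor receptors activate RAS, which drives RAF, MEK and ERK in turn, and ERK activity raises the transcription of several Sprouty and SPRED genes. Sprouty proteins bind adaptors and regulators of the receptors, such as GRB2 and the ubiquitin ligase CBL, whereas SPRED proteins recruit the RAS inactivator NF1 to the membrane. The RNA of these genes is therefore often read as output of the pathway. Only RNA was measured here, not protein.

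The libraries held from 18776212 to 19614763 estimated reads mapped to genes. The labels give the line as MIA PaCa-2 for the control and as MIA PaCa-3, MIA PaCa-4 and MIA PaCa-5 for the libraries of NBT, trametinib and the combination, while all titles name MIA PaCa-2. That line is usually described as poor in E-cadherin and rich in vimentin. In these libraries the E-cadherin gene CDH1 stood between 51.21 and 86.91 TPM (a level scaled to transcript length and to the library total), EPCAM between 209.12 and 242.36 TPM, and the vimentin gene VIM between 11.48 and 26.39 TPM, which goes against that description in all 4 libraries. Of 6 epithelial markers, KRT19 was not among the genes of the series, and KRT7 stood between 2.25 and 5.74 TPM. The summed level of the 5 in the series ran from 2765.44 TPM in the combination library to 7274.30 TPM in the control. Nearly all of that sum was KRT8 and KRT18, which went from 3799.23 and 3141.54 TPM in the control to 2216.20 and 1047.93 with trametinib and 1492.67 and 995.27 with both drugs, while EPCAM went from 242.36 to 209.75 and 218.24 TPM. The fibroblast marker COL1A1 went from 45 control reads to 98 under trametinib, at no more than 1.69 TPM. The endothelial markers PECAM1 and CDH5 summed to at most 0.45 TPM. The leukocyte marker PTPRC stood at or below 0.99 TPM, and CD3E was at 0 in the control and NBT libraries, at 4.23 TPM with trametinib and at 2.14 TPM with the combination. By the limits given below, COL1A1, CD3E and VIM were called higher and KRT18 lower with trametinib against the control. The shares of all genes were 3.86% higher and 2.28% lower. With the combination CD3E and VIM were called higher and KRT18, KRT8 and KRT7 lower, where the shares were 4.89% and 3.83%. The part of these differences in the results below was not tested.

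All 6 genes had reads in every library, at levels that spanned 0.29 to 24.11 TPM. SPRED2 was the most abundant in all 4 libraries, with 24.11 TPM in control cells, 22.31 with NBT, 7.48 with trametinib and 9.46 with both drugs. In the control it was followed by SPRED1 at 9.50 TPM and SPRY2 at 8.22 TPM, whose 95% Poisson intervals of counting error, from 8.81 to 10.22 and from 7.06 to 9.52, overlapped. SPRY1 (3.54 TPM), SPRY4 (3.50 TPM) and SPRED3 (2.55 TPM) were the lowest, and the intervals of SPRY1 and SPRY4, from 2.86 to 4.34 and from 2.99 to 4.07, also overlapped. The order changed under the drugs: SPRY4 was the fourth most abundant with NBT and the lowest in both libraries given trametinib, at 0.29 and 0.32 TPM. These places were within counting error of the next gene. The SPRY4 interval overlapped that of SPRED3 with NBT and that of SPRY1 in both libraries given trametinib. SPRED3 went from the last place in the control to the third with the combination, where it stood at 1.77 TPM against 1.71 for SPRED1, with overlapping intervals.

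**Figure D1:**
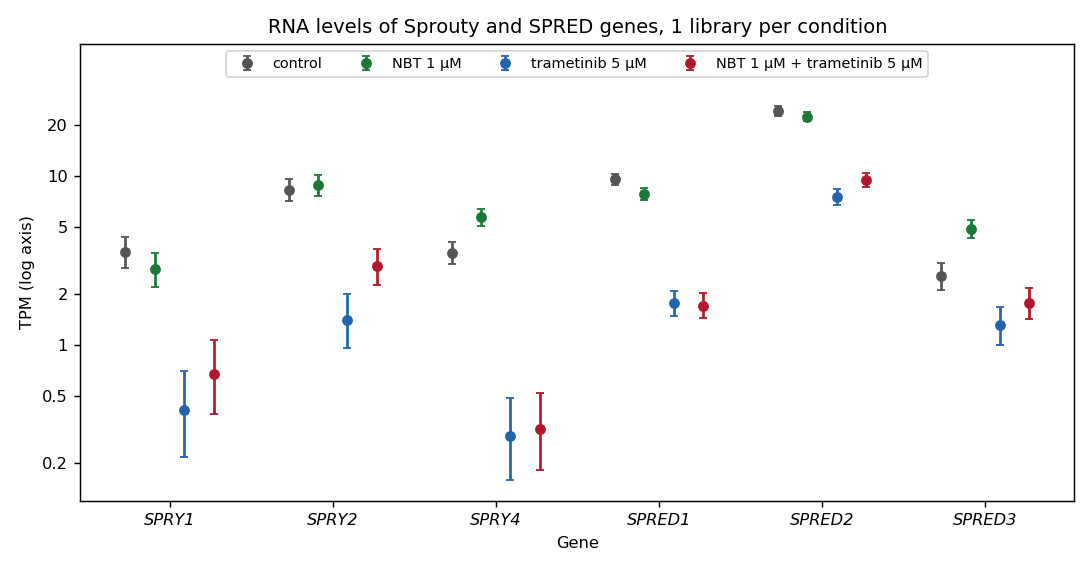
Level of each gene in TPM (log axis) in the control, NBT, trametinib and combination libraries, 1 point per library, with 95% Poisson intervals that cover counting error only. The 2 libraries given trametinib lie below the other 2 for every gene, with the widest gap for SPRY4 (0.29 and 0.32 TPM against 3.50 and 5.67) and the narrowest for SPRED3 (1.31 and 1.77 against 2.55 and 4.86).

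Summed over the 3 Sprouty genes, the level was 15.26 TPM in control cells, 17.27 with NBT, 2.11 with trametinib and 3.90 with both drugs. The 3 SPRED genes summed to 36.16, 34.94, 10.56 and 12.94 TPM in the same order. With trametinib the Sprouty sum stood at 13.83% of its control level and the SPRED sum at 29.20%, and with the combination the shares were 25.56% and 35.79%. The SPRED genes made up 70.32% of the summed level in the control and 83.35% with trametinib.

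To set the letters around the start sites beside the changes described next, the promoter windows of RefSeq (GRCh38.p14, from 250 bases before to 50 bases after an annotated start) were read. All 6 genes had at least 1 window, 11 in all. They were searched on both strands for CCGGAA and AGGAAG, short forms of the sites of ETS transcription factors, which ERK activates, for the AP-1 site TGANTCA and for the CRE site TGACGTCA. Over all 35116 windows of the table, 17.2% held CCGGAA, 33.6% AGGAAG, 7.71% TGANTCA and 1.85% TGACGTCA. Of the 11 windows of these genes, 2 held CCGGAA, 8 AGGAAG, 2 TGANTCA and 0 TGACGTCA, and no matches to different motifs overlapped. A match describes the letters only and is not a measured binding site.

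The windows of 4 genes are printed, 5′ to 3′ on the strand of the gene: SPRY4, the gene that fell most with trametinib, SPRY2, the 1 gene called when the combination was compared with trametinib, SPRED2, the most abundant, and SPRED3, whose pattern stood apart. Where a gene had several windows, the one nearest to the GENCODE v29 start of its most abundant matched transcript was taken. Capitals mark the motifs on either strand, so that CTTCCT is AGGAAG on the other strand, and positions count from the annotated start of the window, which lay 793 bases from the transcript start for SPRY4, 175 for SPRY2, 422 for SPRED2 and 409 for SPRED3. SPRY4 (chr5:142324198-142324497, minus strand) held none of the motifs. SPRY2 (chr13:80341077-80341376, minus strand) held CCGGAA at -142 and AGGAAG at -63. SPRED2 (chr2:65432550-65432849, minus strand) held AGGAAG at -200, -85 and -12. SPRED3 (chr19:38389541-38389840, plus strand) held AGGAAG at -147 and TGANTCA at -60.
SPRY4: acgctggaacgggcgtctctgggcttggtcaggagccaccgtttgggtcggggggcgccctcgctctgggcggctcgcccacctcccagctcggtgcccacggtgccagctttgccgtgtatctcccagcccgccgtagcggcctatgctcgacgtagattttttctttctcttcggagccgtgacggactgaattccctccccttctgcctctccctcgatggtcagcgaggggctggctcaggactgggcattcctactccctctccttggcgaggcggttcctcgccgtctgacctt
SPRY2: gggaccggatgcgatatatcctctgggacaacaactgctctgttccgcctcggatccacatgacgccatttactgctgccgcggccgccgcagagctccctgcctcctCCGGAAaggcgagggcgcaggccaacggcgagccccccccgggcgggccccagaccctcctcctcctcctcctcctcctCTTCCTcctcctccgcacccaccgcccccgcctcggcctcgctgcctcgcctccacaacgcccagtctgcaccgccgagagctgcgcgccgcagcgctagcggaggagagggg
SPRED2: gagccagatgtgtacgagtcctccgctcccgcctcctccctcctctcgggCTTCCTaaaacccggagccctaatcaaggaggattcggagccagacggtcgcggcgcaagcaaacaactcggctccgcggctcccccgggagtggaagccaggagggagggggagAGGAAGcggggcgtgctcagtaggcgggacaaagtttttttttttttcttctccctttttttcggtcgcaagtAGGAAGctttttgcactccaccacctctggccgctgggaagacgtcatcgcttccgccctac
SPRED3: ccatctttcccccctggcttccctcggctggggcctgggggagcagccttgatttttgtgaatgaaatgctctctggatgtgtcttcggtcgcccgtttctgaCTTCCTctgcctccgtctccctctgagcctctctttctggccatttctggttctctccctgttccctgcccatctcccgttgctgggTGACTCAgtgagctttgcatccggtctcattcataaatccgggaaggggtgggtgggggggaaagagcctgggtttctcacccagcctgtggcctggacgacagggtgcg

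To ask how MEK inhibition moved the feedback genes, the trametinib library was compared with the control library. The 3 Sprouty genes, SPRED1 and SPRED2 fell, by between 3.28-fold and 11.8-fold, and SPRED3 was 1.94-fold lower without being called. A gene was called when the exact two-sided binomial comparison of its reads in the 2 libraries, adjusted over all genes with a read by the Benjamini-Hochberg method, was at most 0.05 and the log2 fold change was at least 1 in size. Of the 6 genes, 5 were thus called lower and 0 higher, against 2.28% of all 16197 genes called lower and 3.86% called higher. Their median change was -2.44 on the log2 scale, and that of all genes tested was 0.08. With a coefficient of variation of 0.4 among cultures assumed, 0 of the 6 were called lower here and 0 in the combination against the control, where 0.0556% and 0.129% of all genes were. The call compares libraries and not conditions, and in bulk RNA fewer cells that express a gene and less RNA per cell cannot be told apart.

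SPRY4 (NCBI Gene 81848, chromosome 5, 142310430 to 142325021), an inhibitor of RAS activation by growth factor receptors, had 169 control reads, 295 with NBT, 14 with trametinib and 16 in the combination. Both libraries given trametinib were far below both others. The fall with trametinib was 11.8-fold, a log2 fold change of -3.56 (95% interval of counting error from -4.51 to -2.82), and 14 of the 11222 genes with at least 50 reads in 1 of these libraries, SPRY4 included, fell that far. SPRY4 holds the long noncoding RNA gene SPRY4-IT1 within its bounds. Reads from bases shared by transcripts of overlapping genes can be told apart at best by strand. The sources used here do not give the strand for the counting. Whether transcripts of SPRY4 and SPRY4-IT1 share bases was not tested.

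SPRY1 (NCBI Gene 10252, chromosome 4, 123396795 to 123403760), which restrains receptor signaling in kidney and other developing organs, had 93 control reads, 78 with NBT, 13 with trametinib and 17 in the combination. The log2 fold change with trametinib was -2.81 (from -3.81 to -2.01), a fall of 6.99-fold. Its few reads gave it the widest interval of the 6 genes in this comparison.

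SPRY2 (NCBI Gene 10253, chromosome 13, 80335976 to 80341126), the Sprouty protein best known for binding CBL and GRB2, had 179 control reads, 205 with NBT, 32 with trametinib and 68 in the combination. With trametinib it fell 5.57-fold, a log2 fold change of -2.48 (from -3.09 to -1.95). The combination library lay between the trametinib library and the libraries without trametinib.

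SPRED1 (NCBI Gene 161742, chromosome 15, 38252836 to 38357249), the gene inactivated in Legius syndrome and a carrier of NF1 to the membrane, had 711 control reads, 623 with NBT, 136 with trametinib and 137 in the combination. It fell 5.26-fold with trametinib, a log2 fold change of -2.40 (from -2.68 to -2.13), and its 2 trametinib libraries were almost equal in reads.

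SPRED2 (NCBI Gene 200734, chromosome 2, 65307175 to 65432599), a close relative of SPRED1 that also dampens ERK activation, had 1021 control reads, 1008 with NBT, 314 with trametinib and 420 in the combination. Its fall with trametinib was 3.28-fold, a log2 fold change of -1.71 (from -1.90 to -1.53). The interval lay above those of SPRED1, SPRY2, SPRY1 and SPRY4, so the most abundant of the genes fell less than these 4 beyond counting error.

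SPRED3 (NCBI Gene 399473, chromosome 19, 38388697 to 38399587), the least studied of the SPRED genes, had 118 control reads, 244 with NBT, 61 with trametinib and 89 in the combination. Its log2 fold change with trametinib was -0.96 (from -1.44 to -0.51), just short of the limit of 1. The interval left out 0, as it did for 47.6% of all genes in this comparison. TMM and median-of-ratios scaling of the libraries gave -1.03 and -1.02 and a call, with 2.54% and 2.5% of all genes called lower. Both libraries given trametinib were below the control, and the NBT library was the highest.

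**Figure D2:**
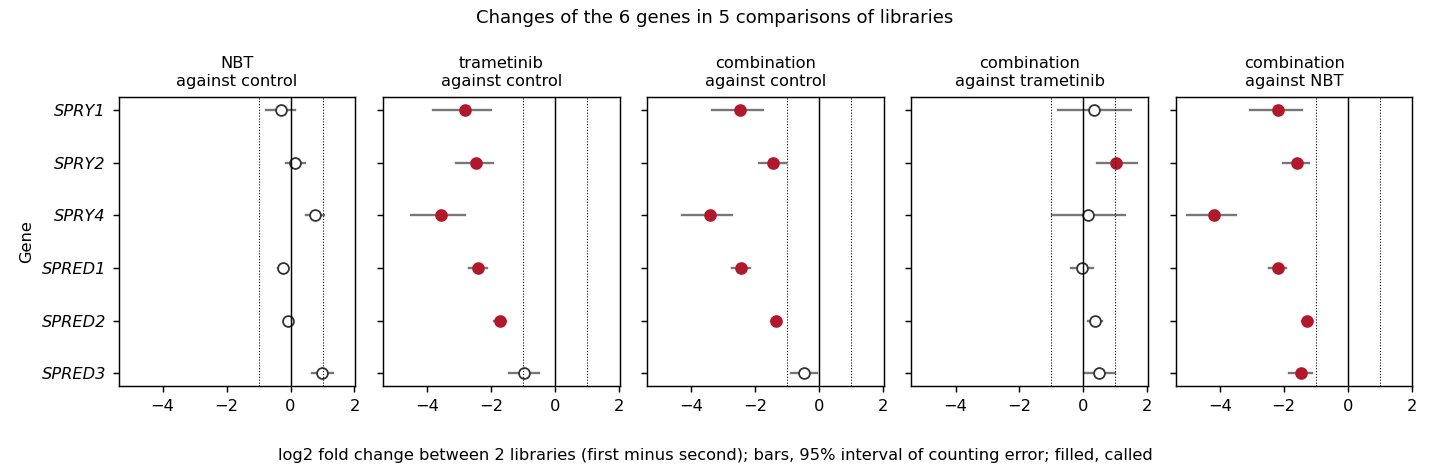
Log2 fold change of each gene in 5 comparisons of libraries, with 95% Clopper-Pearson intervals of counting error; filled points were called, and dotted lines mark the limit of 1. In the trametinib comparison 5 of 6 points are filled and lie between -3.56 and -1.71, and in the NBT comparison none is filled.

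NBT alone left the family without a call. Against the control, 0 of the 6 genes were called lower and 0 higher, with 1.13% and 1.63% of all 15888 genes called in these directions, and their median change was 0.04 on the log2 scale. The genes pointed in both directions, however. SPRY4 had a log2 fold change of 0.75 (from 0.48 to 1.04) and SPRED3 of 0.99 (from 0.68 to 1.33), above 0 by more than counting error, while SPRED1 was at -0.24 (from -0.40 to -0.08). The intervals of SPRY1 (-0.30, from -0.76 to 0.15), SPRY2 (0.15, from -0.15 to 0.44) and SPRED2 (-0.07, from -0.20 to 0.06) included 0. An interval that left out 0 was common in this comparison, at 41.2% of all genes. For SPRED3 TMM scaling gave 1.00 and a call, with 1.66% of all genes called higher.

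To see whether NBT altered what trametinib did, the combination library was compared with each of the other libraries. Against the control, 5 of the 6 genes were called lower, SPRY1, SPRY2, SPRY4, SPRED1 and SPRED2, with 3.83% of all 16229 genes called lower and 4.89% higher, and the median of the 6 was -1.94 on the log2 scale. The log2 fold change was -3.42 for SPRY4 (10.7-fold lower), -2.48 for SPRY1 (5.58-fold), -2.43 for SPRED1 (5.41-fold), -1.45 for SPRY2 (2.74-fold) and -1.34 for SPRED2 (2.54-fold). SPRED3 was at -0.47 (from -0.88 to -0.06) without a call, and an interval that left out 0 was seen for 53.1% of all genes. This comparison and that of trametinib share the control library, so their values are not independent.

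Against the trametinib library, 1 gene was called. SPRY2 rose 2.04-fold in the combination, from 32 to 68 reads, a log2 fold change of 1.03 (from 0.41 to 1.69), where 2.64% of 16343 genes were called higher and 3.73% lower. The call was lost with 5 reads added (0.93; 2.41% of all genes called higher), with the deposited TPM values (just under 1; 2.49%) and when a coefficient of variation of 0.2 among cultures was assumed (0.875%). SPRED2 had a log2 fold change of 0.37 (from 0.16 to 0.59) and SPRED3 of 0.49 (from 0.01 to 0.99), not called, and 49.4% of all genes had an interval that left out 0. SPRED1 (-0.04, from -0.39 to 0.31), SPRY4 (0.14, from -0.99 to 1.29) and SPRY1 (0.32, from -0.79 to 1.5) had intervals that include 0. With 13 to 17 reads a library, the intervals of SPRY1 and SPRY4 left room for differences past the limit of 1 upward, so smaller ones were not detectable at this depth.

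Against the NBT library, all 6 genes were called lower in the combination, against 2.16% of 16250 genes called lower and 2.38% called higher. SPRY4 showed the largest fall of the 6, from 295 to 16 reads, a log2 fold change of -4.18 (from -5.04 to -3.49), and 6 of 11173 genes with at least 50 reads fell that far, SPRY4 included. SPRED3, from 244 to 89 reads, had a log2 fold change of -1.46 (from -1.83 to -1.11). SPRED1 was at -2.19, SPRY1 at -2.18, SPRY2 at -1.60 and SPRED2 at -1.28. When a coefficient of variation of 0.4 among cultures was assumed, SPRY4 was the 1 gene of the 6 still called, with 0.0492% of all genes, and at 0.2 SPRY1, SPRY2, SPRY4 and SPRED1 were called but not SPRED2 and SPRED3, with 0.677% of all genes. This pair shares no library with the pair of trametinib and control, and SPRY1, SPRY2, SPRY4, SPRED1 and SPRED2 were called lower in both pairs.

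The change with both drugs was then set against the sum of the log2 fold changes of the single drugs. A departure was counted when this difference was at least 1 in size and its approximate 95% interval of counting error left out 0. None of the 6 genes departed by this measure (0 of 6, against 2.23% of 11367 genes with at least 50 reads in 1 library). The intervals of 2 genes left out 0, as did those of 43.1% of the genes: SPRY2, with a combination value 0.88 (from 0.21 to 1.55) above the sum, and SPRED2, 0.44 (from 0.19 to 0.68) above it, a direction shared by 19.1% of the genes. The departures of SPRY1 (0.63, from -0.49 to 1.74), SPRED1 (0.20, from -0.17 to 0.58), SPRY4 (-0.62, from -1.67 to 0.44) and SPRED3 (-0.50, from -1.07 to 0.06) were within counting error.

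**Figure D3:**
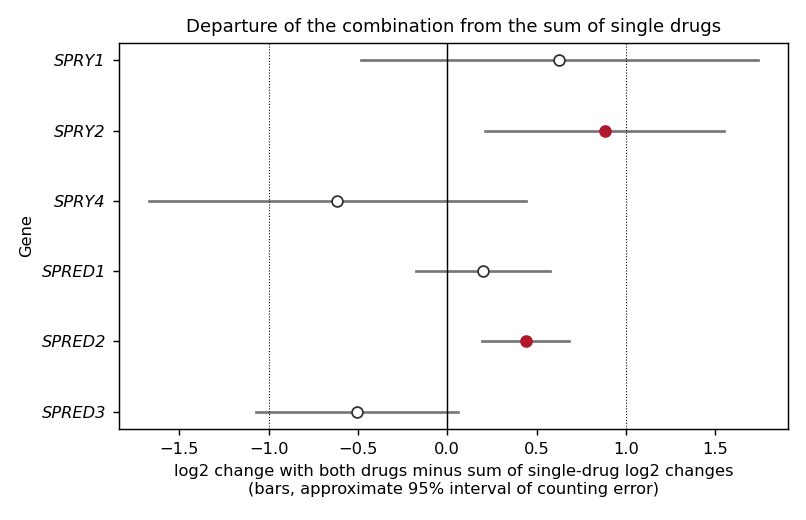
Difference between the log2 change with both drugs and the sum of the log2 changes with NBT and with trametinib, each against the control, with approximate 95% intervals of counting error; filled points have an interval that leaves out 0. SPRY2 (0.88) and SPRED2 (0.44) are filled, and no point with such an interval reaches the limit of 1.

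The transcripts of each gene were read next, to see whether the falls came from 1 isoform. How reads are divided between transcripts that share exons is an estimate, so only large shares are described. The transcript NM_181784.3 carried most SPRED2 RNA in every library, from 89.44% of the gene's TPM with trametinib to 95.64% in the control, and it had 23.06 TPM in control cells, 20.83 with NBT, 6.69 with trametinib and 8.75 with both drugs. NM_005842.4 carried from 75.45% to 93.47% of SPRY2, with 6.99, 6.64, 1.17 and 2.72 TPM in the same order. The lower level with trametinib and the higher one in the combination than with trametinib were thus both seen in the main transcript of each gene.
SPRY4 was spread over 4 transcripts in the control, of which NM_001127496.3 held 69.43%, and its reads in both libraries given trametinib were all assigned to that transcript. NM_001127496.3 had 2.43 TPM in the control and 5.04 with NBT, and 0.29 and 0.32 TPM in the libraries given trametinib. SPRED1 was led in all libraries by the predicted transcript XM_005254202.3, with 6.23 TPM in control cells, 4.42 with NBT, 1.03 with trametinib and 1.06 with both drugs. NM_152594.3, the curated SPRED1 transcript, stood at 2.73, 3.28, 0.56 and 0.65 TPM, so both were lower with trametinib, while with NBT the first was lower and NM_152594.3 higher than in the control.
SPRED3 changed its leading transcript between libraries. XM_006723219.3 held 74.90% of its TPM in the control and 0.00% with the combination, where XM_011526978.2 held 72.47%, a transcript at 0 in the control and at 30.04% with NBT. SPRY1 had no main transcript in the control, where NM_001258039.1 (44.07% of its TPM) and NM_001375410.1 (42.09%) were close. With trametinib and with both drugs the gene had 13 and 17 reads in all, too few to compare its transcripts. The assignment for SPRED3 also rests on few reads.

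**Figure D4:**
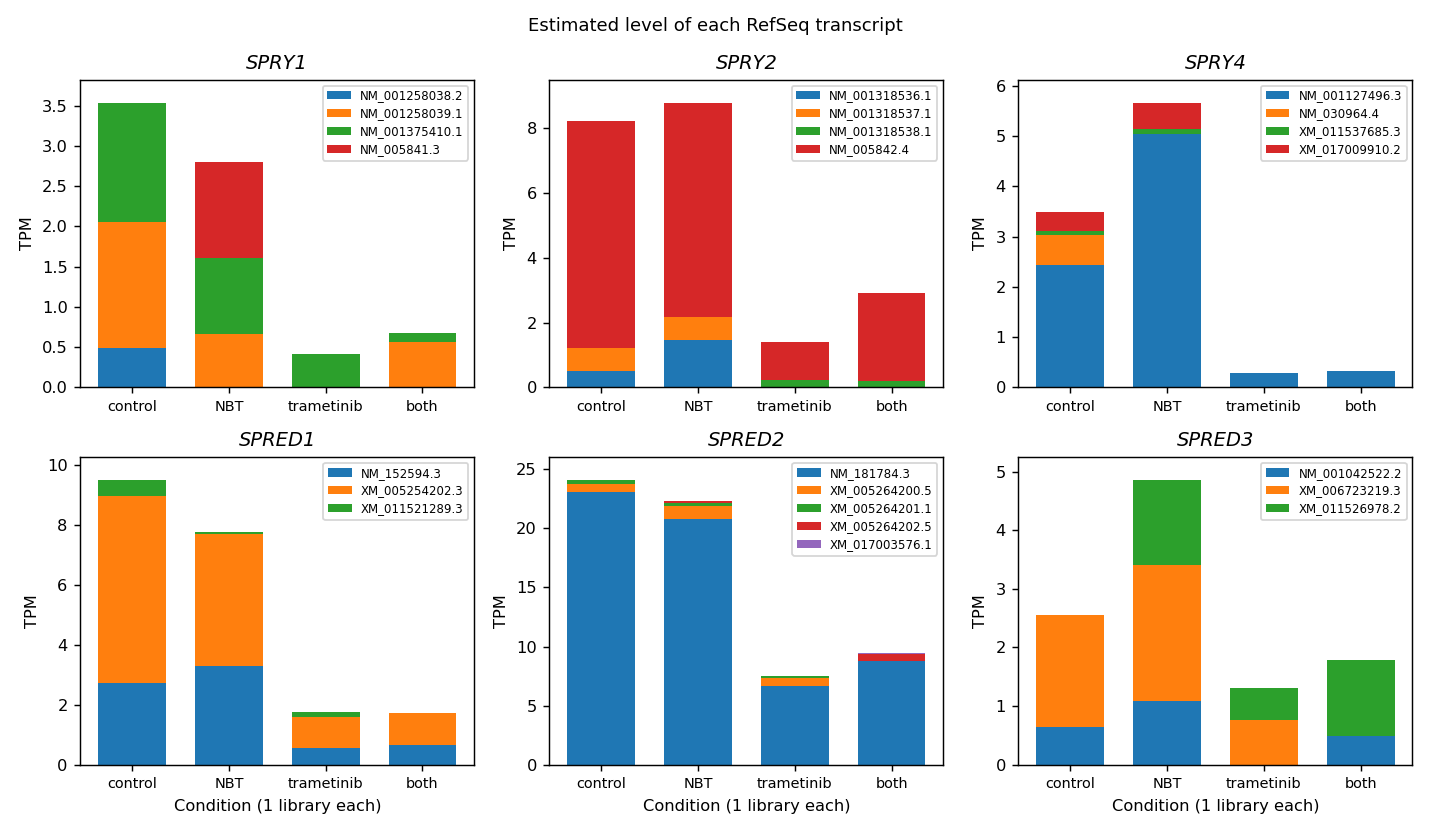
TPM of each RefSeq transcript of the 6 genes, stacked, in the control, NBT, trametinib and combination ("both") libraries, 1 library each. SPRED2 and SPRY2 keep 1 main transcript throughout, whereas the leading transcript of SPRED3 differs between the control and the combination.

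Other genes of the feedback circuit were set beside the family in lists of RNA output of ERK, inhibitors, binding partners and receptors. Of 8 further genes used as a readout of ERK output, 7 were called lower with trametinib and 7 with the combination. Over all genes, 2.28% and 3.83% were called lower. The remaining gene, EPHA4, had 1 read over all libraries. The median of the list was -3.48 with trametinib, over 8 genes with EPHA4 included, and -3.83 with the combination, over 7 genes without it. Both lay below those of the Sprouty and SPRED genes. ETV5, an ETS factor, had 367 control reads, 777 with NBT, 16 with trametinib and 23 in the combination. It rose with NBT, by 1.03 on the log2 scale, the only call of the list there, where 1.63% of all genes were called higher. PHLDA1, a regulator of growth factor responses, had 4113, 5448, 420 and 662 reads in the same order, ETV4 had 1166, 1449, 232 and 225, and the phosphatase gene DUSP4 had 1175, 620, 56 and 98. CCND1, EPHA2 and DUSP6 completed the 7, with log2 fold changes from -4.52 to -2.70 with trametinib.
The inhibitors outside the family did not share a direction. Of 12 such genes, 11 had a read with trametinib or in the control, 2 were called lower (DUSP5 and ERRFI1) and 2 higher (DUSP10 and IL17RD). Over all genes, 2.28% were called lower and 3.86% higher. DUSP5, a nuclear phosphatase of ERK, had 401 control reads, 689 with NBT, 55 with trametinib and 134 in the combination. In the combination against trametinib, DUSP5 (log2 fold change 1.23) and DUSP1 (2.09) were called higher and DUSP10 (-1.37) lower among the 12 inhibitors. Of the 8 ERK output genes, CCND1 (-2.07) was called lower there and 0 were called higher. The shares of all genes were 2.64% called higher and 3.73% called lower. ERRFI1, an inhibitor of EGFR, had a log2 fold change of -1.08 under trametinib and of -0.68 under both drugs. DUSP10 was at 1.13 and -0.24, and IL17RD, which encodes an inhibitor of FGF signaling, at 1.17 and 0.66. With the combination against the control DUSP1 rose (1.59), DUSP7 fell (-1.29) and DUSP9, with 6 reads in the control and 0 in the combination, was called lower. In that comparison 3.83% of all genes were called lower and 4.89% higher.
Of 18 binding partners and modifiers of Sprouty and SPRED proteins, 0 were called with trametinib (median 0.10), where 6.14% of all genes were called in either direction. With the combination 2 of them, CBLB and MKNK2, rose, with log2 fold changes of 1.55 and 1.5, where 8.73% of all genes were called in either direction. These counts are near the shares of all genes. CBLB, a ubiquitin ligase related to CBL, had 172 control reads, 265 with NBT, 303 with trametinib and 527 in the combination. NF1 had log2 fold changes of -0.10 with trametinib and -0.27 with the combination, CBL of -0.08 and 0.19, and GRB2 of 0.15 and -0.16. Among 11 receptors in the data, FGFR3 alone was called against the control, higher with trametinib (1.61, from 211 to 652 reads) and lower with NBT (-1.14, 99 reads). Of all genes, 3.86% were called higher with trametinib and 1.13% lower with NBT. The receptor median was 0.67 with trametinib and -0.02 with the combination, against 0.08 and 0.05 for all genes tested. FGFR1, with 36 control reads and 58 with trametinib (from 0.05 to 1.32), gave the 0.67. PDGFRB, with 0 control reads and 1 with trametinib, was counted in that median.

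**Figure D5:**
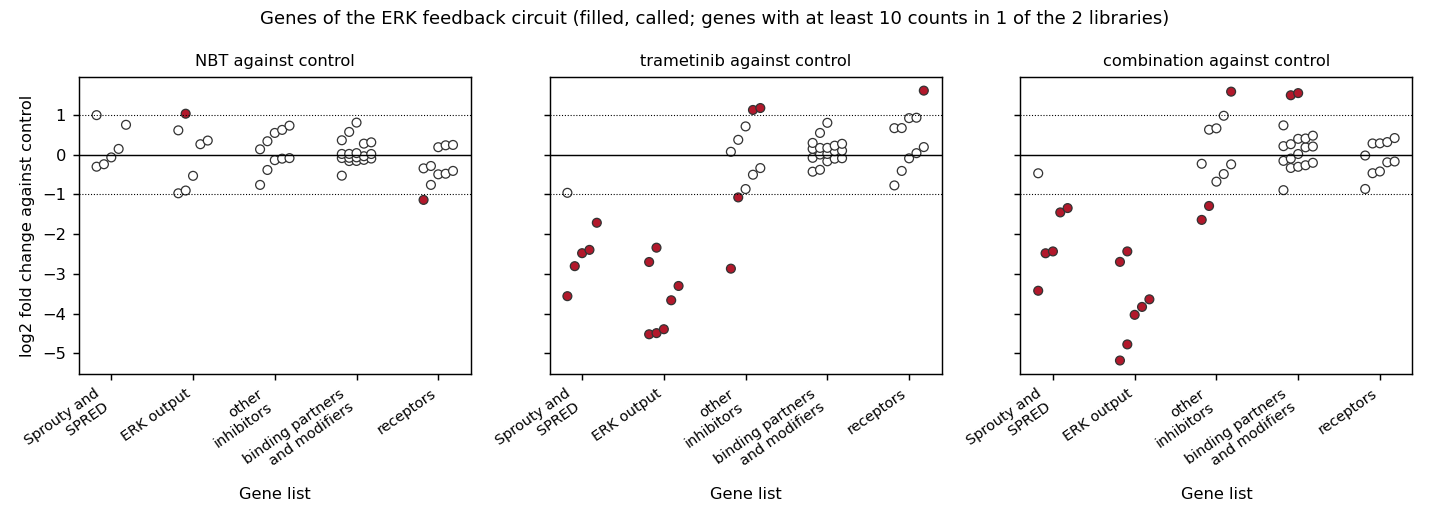
Log2 fold change against the control of the genes of 5 lists in the NBT, trametinib and combination libraries, 1 point per gene with at least 10 reads in 1 of the 2 libraries; filled points were called. The Sprouty and SPRED genes and the ERK output genes lie mostly below -1 in both libraries given trametinib, and the binding partners lie between -1 and 1 with trametinib.

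Finally, the genes with the pattern closest to each family gene were listed among 10662 genes with at least 100 reads in 1 library, by the Euclidean distance between the 3 log2 fold changes against the control, over 4 libraries. DCBLD2 (distance 0.08), SLC2A3 (0.18) and IL4R (0.18) were nearest to SPRED2. INPP4B (0.15), ADAM19 (0.21) and TMEM171 (0.26) were nearest to SPRED1. RAPGEF3 (0.25), MAP3K9 (0.43) and MARCHF4 (0.44) were nearest to SPRY2, and STAMBPL1 (0.44), PALM2AKAP2 (0.50) and THBD (0.51) to SPRED3. The genes nearest to SPRY4, PHLDA1, SH3TC2 and TMEM63A, lay at distances of 0.87, 1.02 and 1.06. SPRY4 had 14 reads with trametinib and 16 in the combination. Its intervals against the control were from -4.51 to -2.82 and from -4.30 to -2.72, so its distances carry a wide counting error. SPRY1 was not compared because it had fewer than 100 reads. The distances rest on 1 library per condition and share the control.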

How the data were processed

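RNA of 4 conditions was sequenced on the BGISEQ-500 platform, 1 library each. The submitters' processing notes name Bowtie2 2.2.5, RSEM 1.2.8 and the build hg38. The authors deposited, per gene and per RefSeq transcript, an estimated count (not normalized), a TPM value and an FPKM value, of which the FPKM values were not used. Groups came from the treatment labels. Estimated counts were rounded and scaled to the library sums (0.5 reads added for log2 fold changes), and calls followed the limits of the paper's Poisson comparison. Intervals (95%) were Clopper-Pearson for ratios and Poisson for levels, and the departure from additivity used a normal approximation. They cover counting error only, because each condition had 1 library. PCR copies are not independent molecules, so the intervals can be too narrow even for that error. Positions and promoters are those of RefSeq (GRCh38.p14), and transcript starts those of GENCODE v29.

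The genes and lists were chosen with earlier results of these data known. Genes of the pathway lists were named when called against the control (NF1, CBL and GRB2 in any case; EPHA4 was added after its values were seen), and the 3 nearest genes by distance for each gene with at least 100 reads. Alternatives were TMM factors, median-of-ratios factors, deposited TPM (pseudocount 0.1), 5 added reads, summed transcript counts, a minimum of 10 reads, log2 limits of 2 and none, and edgeR's negative binomial exact test with assumed coefficients of variation of 0.2 and 0.4. The calling step alone was tested on simulated Poisson counts, which hold no variation between cultures. Python 3.11.15 was used with scipy 1.17.1, numpy 2.4.6, pandas 2.3.3 and matplotlib 3.10.9, and scaling factors and the negative binomial test came from edgeR 4.0.16 and DESeq2 1.42.0 in R 4.3.3.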

Additional observations from a re-analysis of the deposited data

Results flagged for a closer look

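For 2 of the 6 genes the change with NBT differed between cells with and without trametinib by more than counting error. SPRY2 had a log2 fold change of 0.15 with NBT alone and of 1.03 when NBT was added to trametinib, a difference of 0.88. For SPRED2 the values were -0.07 and 0.37, a difference of 0.44. Both differences are those from additivity given above. Of 11367 genes, 43.1% had an interval that left out 0 in either direction, and 19.1% one that lay above 0. Such a difference was therefore common, and variation between cultures was not measured. Groups of 1 library allow no search for outlying samples.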

How the results depend on the processing

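No paired analysis was possible because each condition has 1 library, and for the same reason no library could be left out. The 5 genes called lower with trametinib and with the combination against the control were called again under both scalings, TPM, 5 added reads, summed transcript counts, the minimum of 10 reads, no log2 limit and a coefficient of variation of 0.2. Of all genes, 17.8% and 24.1% were called lower without a log2 limit, and 1.0% and 1.55% with a coefficient of 0.2. Under the other settings these shares ran from 2.18% to 2.59% and from 3.64% to 4.52%. With a coefficient of 0.4 the counts among the 6 genes were 0 and 0, and 1 for the combination against NBT, while 0.0556%, 0.129% and 0.0492% of all genes were called lower. With a coefficient of 0.2, 4 of the 6 were called lower in the combination against NBT, with 0.677% of all genes. With a log2 limit of 2, 4 genes were called lower with trametinib, without SPRED2 (0.877% of all genes), 3 in the combination against the control (1.04%) and 3 against NBT (0.72%). The 1 gene called higher in the combination against trametinib became 0 with TPM, 5 added reads, a log2 limit of 2 and coefficients of 0.2 and 0.4, and 2 without a log2 limit, where 20.9% of all genes were called higher. With NBT alone, 1 gene was called higher with TMM factors, and without a log2 limit 2 were called higher and 1 lower, where 17.0% and 18.9% of all genes were. Of 150 recomputed log2 fold changes 144 kept direction and call, and 1 turned direction, SPRED1 in the combination against trametinib (0.0081 with TMM). The scalings shifted all genes by at most 0.07 in size.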
